A study of Homo sapiens with 2 samples.

Results

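The miR-221 and miR-222 cluster was followed here as its 4 mature products, the 5p and 3p arms of 2 hairpins, in small RNA libraries of UM-SCC6-M and parental UM-SCC6 cells. The members were taken by name from the 1213 entries of the deposited table, and all 4 were present. UM-SCC6 is a line of human oral squamous carcinoma cells. UM-SCC6-M cells are descended from it and were grown from cells that had crossed a matrix channel of a microfluidic chip, with that selection carried out 3 times. The labels call them invasion front cells with high invasion ability and some mesenchymal traits, and the parental cells had no chip selection. Each state gave 1 library, so every difference below compares 2 libraries, has no replicate check and was given no test between the states. Whether a difference belongs to the selection, to the passages in culture or to the library cannot be told apart.

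A microRNA (miRNA) is a short RNA that guides a silencing complex to messenger RNAs, mainly through its seed, bases 2 to 8 from the 5′ end. miR-221-3p and miR-222-3p are the guide strands of this cluster, and the 5p arms are usually described as passenger strands. The guides are best known for repressing CDKN1B, which encodes the cell cycle inhibitor p27, and KIT, a receptor tyrosine kinase, and they are abundant in many carcinomas and in endothelium. Loss of p27 releases cells from arrest, and for this reason the cluster is usually grouped with growth-promoting and invasion-promoting miRNAs.

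Mature sequences are shown first because both guides carry the same seed, here in capitals, and so are expected to address largely the same messages. RefSeq gives 3 of the 4 products on the GRCh38.p14 assembly.
miR-221-3p: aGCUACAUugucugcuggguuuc
miR-222-3p: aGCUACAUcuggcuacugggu
miR-222-5p: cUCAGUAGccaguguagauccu

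The guides are identical over their first 8 bases and differ from base 9 onward. With the 5′ ends aligned and no gap, 10 of 21 positions differ, beginning with U9C, G10U and U11G (the base of miR-221-3p, the position counted from the 5′ end, and the base of miR-222-3p). They share another run of 6 bases, cugggu, which starts at position 15 of miR-221-3p and at position 16 of miR-222-3p. Among 2370 mature human names in RefSeq no other carries this seed. The seed of miR-222-5p is likewise carried by no other name.

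The hairpins lie on the X chromosome, and their sequences are shown with the RefSeq mature products in capitals because the place of the arms bears on the arm balance described below. MIR221 is at chrX:45746157-45746266 and MIR222 at chrX:45747015-45747124, both on the minus strand of GRCh38.p14, with 748 bases between them. In GENCODE release 29 (GRCh38) both fall in the intron of a transcript of MIR222HG, a long noncoding host gene with 2 exons in that transcript. The positions come from these annotations and not from the authors' file.
MIR221: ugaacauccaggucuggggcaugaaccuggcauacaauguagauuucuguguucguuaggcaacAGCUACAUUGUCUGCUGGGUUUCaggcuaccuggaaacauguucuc
MIR222: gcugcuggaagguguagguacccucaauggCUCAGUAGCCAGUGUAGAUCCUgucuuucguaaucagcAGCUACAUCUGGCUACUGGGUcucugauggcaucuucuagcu

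As background on the targets, the 7 letters ATGTAGC, the DNA complement of the shared seed, were searched on the transcript strand of GENCODE 3′ UTRs, with the longest 3′ UTR taken for each gene. They occur in 8.08% of 19132 3′ UTRs. Copies are given here for some genes often reported as targets, chosen as background and not as a sample of all targets. CDKN1B and KIT hold 2 copies each. CDKN1C, which encodes the p27 relative p57, holds 1 copy, as do TIMP3, an inhibitor of matrix proteases, BBC3, which encodes the apoptosis inducer PUMA, and ESR1, the estrogen receptor gene. The copies in CDKN1B, on the plus strand of chromosome 12, are shown with the match in capitals. They span chr12:12721214-12721237 and chr12:12721287-12721310 in GRCh38. No messenger RNA was measured in this series, so the matches describe sequence only.
CDKN1B site 1: tctaaaagcgttggATGTAGCatt
CDKN1B site 2: agtttttaccttttATGTAGCaca

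Recovered reads, summed over all 1213 entries, numbered 7699490 in UM-SCC6-M cells and 8182958 in parental cells. Of these entries 1178 have a miRNA name. Past 50 normalized reads, 4 pairs of entries from the same place or sequence had nearly equal reads, so some reads may be counted more than once. Values are normalized reads, meaning reads multiplied by 1 constant per library by the authors, with 1 read worth 0.119 in UM-SCC6-M and 0.133 in parental cells. Each log2 ratio has UM-SCC6-M on top. The 95% intervals given in brackets cover the counting error of reads only, because 1 library per state shows no spread between libraries. Reads copied by PCR are not independent molecules, so the intervals may be too narrow for counts of molecules. Of the markers of other cell types, the 4 blood miRNAs with an entry summed to 17.9 normalized reads in UM-SCC6-M and 24.6 in parental cells, all from miR-486-5p, with miR-451a, miR-142-3p and miR-142-5p listed at 0. The 4 fibroblast miRNAs summed to 25.9 and 20.9, with miR-145-5p and miR-214-3p listed at 0. The other fibroblast miRNAs, both under 50 normalized reads, went opposite ways. miR-199a-3p had 21.9 in UM-SCC6-M and 10.5 in parental cells, at a log2 ratio of 1.05 (0.67 to 1.46). miR-143-3p had 4.06 and 10.4, at -1.34 (-1.98 to -0.75). The endothelial arms of miR-126 summed to 550.5 and 986.1, with miR-126-3p at a log2 ratio of -0.90 and miR-126-5p at 0.78 (0.47 to 1.09). The epithelial miRNAs, of which 3 of 7 passed 50 normalized reads, summed to 19623 and 16344. The median log2 ratio of those 3 was -0.09, which was 0.15 when scaled to total reads. Most of the sum was miR-200b-3p, with 17481 in UM-SCC6-M and 12823 in parental cells, at a log2 ratio of 0.45. miR-200a-3p went the other way at -0.99, with 1344 and 2674, and miR-429 stood at -0.09. Few reads came from miR-200c-3p (15 and 20) and miR-203a-3p (23 and 7). Neither miR-205-5p nor miR-141-3p was listed. The part of the endothelial markers in the cluster's levels was not tested.

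All 4 products were lower in UM-SCC6-M than in parental cells, by less than 2-fold. miR-222-3p, the most abundant, had 4280 normalized reads in UM-SCC6-M cells and 6234 in parental cells. These rest on 35841 reads in UM-SCC6-M and 46916 in parental cells, and the level was 1.46-fold lower (1.44 to 1.48). miR-221-3p had 4118 normalized reads in UM-SCC6-M cells and 5196 in parental cells, on 34490 and 39103 reads. It was 1.26-fold lower (1.24 to 1.28). The guide with the larger parental value therefore had the larger difference, and the 2 guides lay closer together in UM-SCC6-M cells.

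The passenger arms were unlike each other in level. miR-221-5p had 1050 normalized reads in UM-SCC6-M cells and 1281 in parental cells, on 8791 and 9638 reads, and was 1.22-fold lower (1.19 to 1.26). miR-222-5p had only 5.02 normalized reads in UM-SCC6-M cells and 9.04 in parental cells, on 42 and 68 reads. Its ratio of 1.79-fold lower has an interval of 1.21 to 2.71, which takes in the ratios of the 3 other products. At this depth a difference between miR-222-5p and the others was not detectable.

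**Figure D1:**
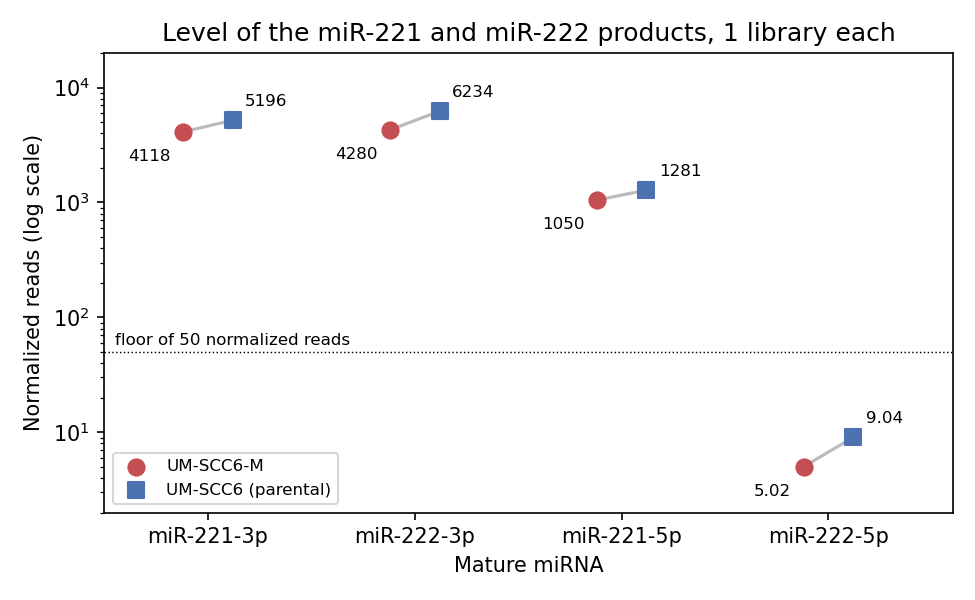
Normalized reads (log axis) of the 4 mature products in the UM-SCC6-M library (circles, left) and the parental library (squares, right), with the values printed and the floor of 50 normalized reads dotted. Each product has the lower value in UM-SCC6-M, and miR-222-5p lies far below the other 3 in both libraries.

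The order of the levels was the same in both libraries, namely miR-222-3p, miR-221-3p, miR-221-5p and miR-222-5p. miR-222-3p ranked 28 among all entries in UM-SCC6-M cells and 22 in parental cells. miR-221-3p ranked 31 in UM-SCC6-M cells and 24 in parental cells. miR-221-5p ranked 64 and 57, and miR-222-5p ranked 322 and 285. The ends of a small RNA affect how well adaptors are ligated to it, so the order of different miRNAs within a library may not be that of the molecules in the cells, and this was not tested.

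Together the 4 products had 9453 normalized reads in UM-SCC6-M cells and 12720 in parental cells, with a log2 ratio of -0.43 (-0.44 to -0.41). They made up 1.03% of the UM-SCC6-M reads (exact interval 1.02 to 1.04) and 1.17% of the parental reads (1.16 to 1.18). The shared guide seed had 8398 normalized reads in UM-SCC6-M cells and 11431 in parental cells, 1.36-fold lower (1.35 to 1.37). Among 365 seeds with a listed value in each library it ranked 13 by summed level in UM-SCC6-M cells and 10 in parental cells, over entries with a RefSeq sequence.

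Across the whole table, 179 miRNAs had reads known in both libraries and at least 50 normalized reads in the higher one, the floor used below. A difference of at least 2-fold was called for 36 of them, a background of 20.1%, with 13 higher (7.26%) and 23 lower (12.8%) in UM-SCC6-M. Scaling by total reads gave 22 higher and 20 lower. Of the 3 cluster members past the floor, 0 were called. The median log2 ratio of the 179 was 0.04, with quartiles of -0.61 and 0.41. miR-222-3p at -0.54 (-0.56 to -0.52), miR-221-3p at -0.34 (-0.36 to -0.31) and miR-221-5p at -0.29 (-0.33 to -0.25) lay between the lower quartile and the median. For miR-222-3p, 47 of the 179 had lower ratios and 131 had higher ones. For miR-221-3p 59 were lower, and for miR-221-5p 64 were lower.

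**Figure D2:**
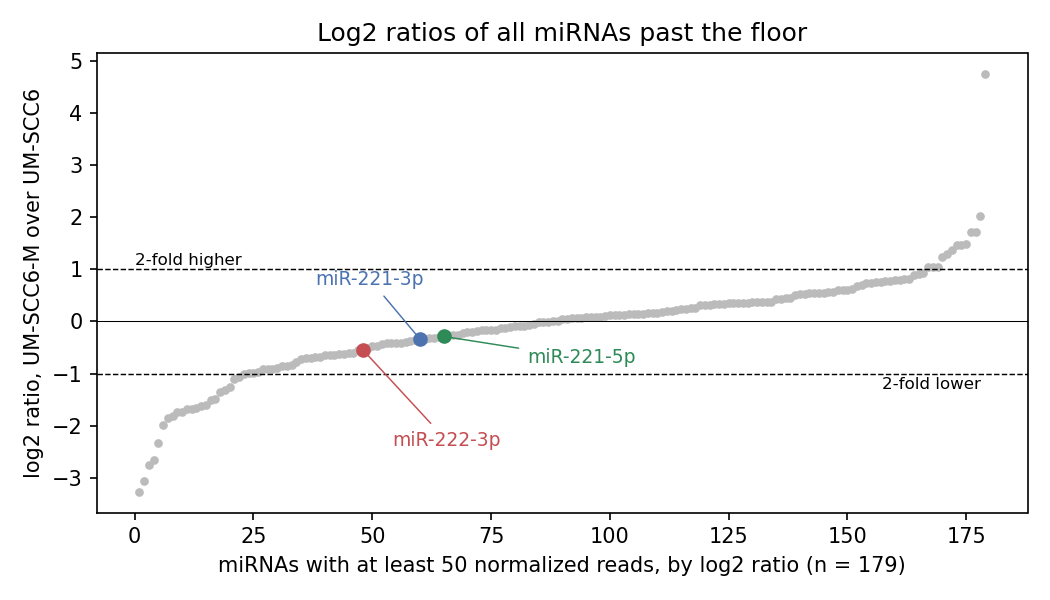
Log2 ratio of UM-SCC6-M over parental for each of the 179 miRNAs past the floor, in order of ratio (grey points), with miR-222-3p, miR-221-3p and miR-221-5p coloured and dashed lines at 2-fold. The coloured points, whose counting intervals are no larger than the symbols, lie below 0 and inside the 2-fold lines.

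The size of these ratios depended on the scaling, and their sign did not under the 5 scalings tried. With the libraries scaled to total reads every log2 ratio moves up by 0.24, which leaves miR-222-3p at -0.30, miR-221-3p at -0.093 and miR-221-5p at -0.045, while the median of the 179 moves to 0.28. The distance of each member from that median does not depend on the scaling. It was -0.58 for miR-222-3p, -0.37 for miR-221-3p and -0.32 for miR-221-5p.

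**Figure D3:**
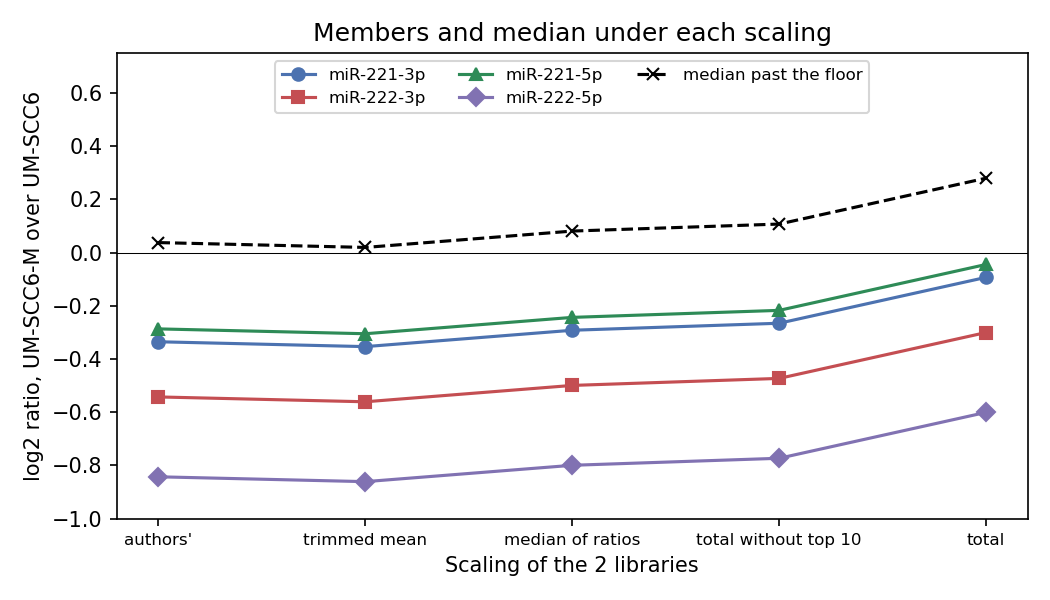
Log2 ratio of UM-SCC6-M over parental for the 4 products and the median of all miRNAs past the floor (dashed) under the authors' scaling and 4 alternatives. The lines run in parallel, with miR-221-5p nearest to 0 at -0.045 under scaling to total reads.

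In the authors' deposited table the log2 fold changes were -0.54 for miR-222-3p, -0.34 for miR-221-3p, -0.29 for miR-221-5p and -0.85 for miR-222-5p. The q-values in the authors' deposited table were 3.14e-25 for miR-222-3p and 0.0115 for miR-221-3p, and 0.991 for both 5p arms, and these figures compare 2 libraries rather than 2 states. The authors' deposited table marks 44 of its 1213 entries as selected, with log2 fold changes all at least 1.01 in size. None of the 4 was among them, and with so small a share marked, 0 of 4 cannot be told from the background.

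The balance of members within a library needs no scaling between libraries, and the balance between the guides differed. miR-221-3p made up 49.0% of the reads of both guides in UM-SCC6-M cells (48.7 to 49.4) and 45.5% in parental cells (45.1 to 45.8). The log2 ratio of miR-221-3p to miR-222-3p was thus higher by 0.21 in UM-SCC6-M (0.18 to 0.24). That difference is beyond the counting error of reads but has no replicate spread to set it against. By hairpin, miR-221 gave 54.7% of the cluster's reads in UM-SCC6-M cells (54.3 to 55.0) and 50.9% in parental cells (50.6 to 51.2).

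The arm balance of miR-221 was nearly the same in both libraries. The 5p arm held 20.3% of the hairpin's reads in UM-SCC6-M cells (19.9 to 20.7) and 19.8% in parental cells (19.4 to 20.1), or 3.92 and 4.06 guide reads for each passenger read. The log2 ratio of 5p to 3p differed by 0.048 (0.0018 to 0.095) between UM-SCC6-M and parental cells. The arms of miR-222 were far less even, with 853 guide reads for each 5p read in UM-SCC6-M cells (631 to 1155) and 689.9 in parental cells (543.9 to 875.2). Its balance differed by -0.30, with an interval of -0.86 to 0.26 that includes 0. The passenger share was thus 174 times that of miR-222 in UM-SCC6-M cells (20.3% and 0.117%) and 137 times in parental cells (19.8% and 0.145%).

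Set beside other hairpins, the arms of miR-221 stayed close. Arms were paired by name and not by locus, so products of more than 1 hairpin may be joined under 1 name. In 30 hairpins both arms passed the floor, and the absolute difference in the log2 ratios of the arms had a median of 0.76 and reached 1.97, in miR-30a. It was at least 1 in 9 of the 30. The value of 0.048 for miR-221 was the smallest of the 30, followed by miR-92b at 0.080 and let-7a at 0.088. The counting interval of miR-221, 0.0018 to 0.095, takes in both of these values, so its first place is not resolved. Intervals were not computed for the other hairpins. With a floor of 10 normalized reads, a setting chosen after seeing the data, 4 of 70 hairpins had a smaller difference. The minor arm share of miR-221, averaged over the libraries, was higher than that of 17 of the 30 hairpins, whose median was 15.8%. miR-423 and miR-3184 are read from the same place on either strand and count as 2 of the 30.

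**Figure D4:**
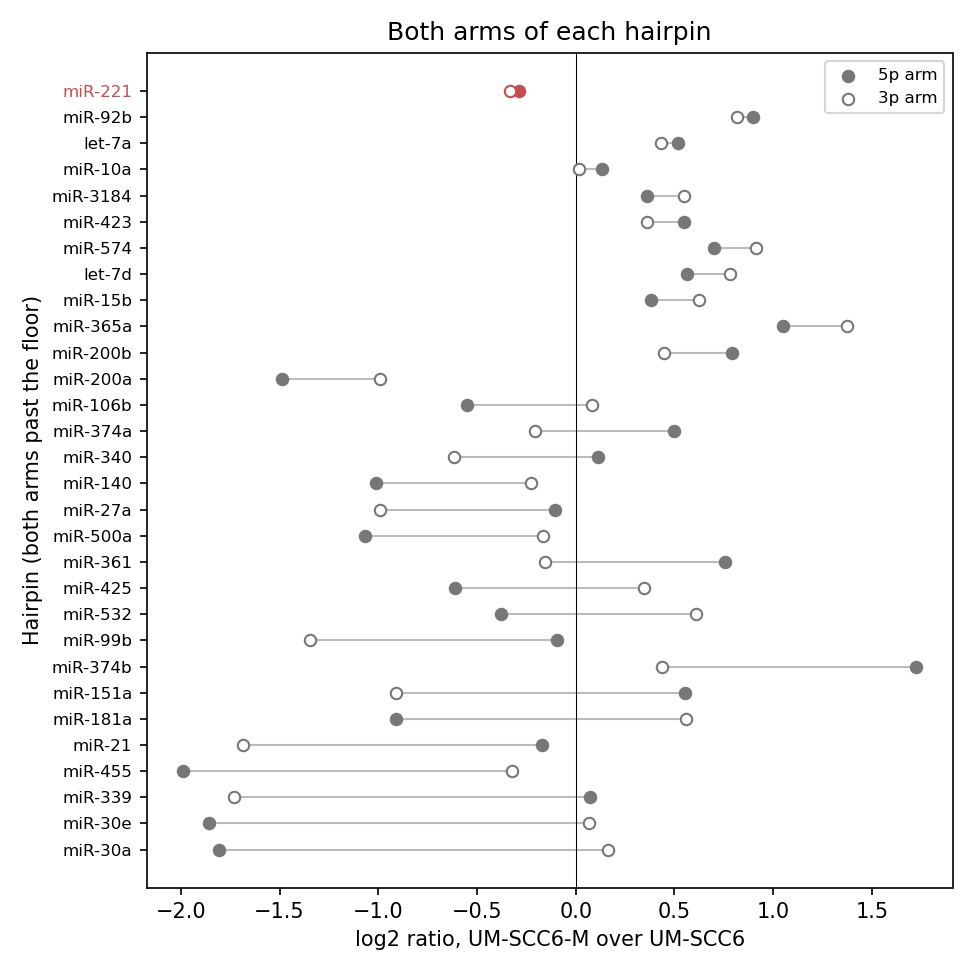
Log2 ratio of UM-SCC6-M over parental for the 5p arm (filled) and the 3p arm (open) of each of the 30 hairpins with both arms past the floor, in order of the distance between arms. The arms of miR-221, at the top, are 0.048 apart, while those of miR-30a, at the bottom, are 1.97 apart.

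The guides share a seed, and other seed families were used to see how far such relatives lay apart. Families were formed from the 158 of the 179 miRNAs that have a RefSeq sequence, so relatives without one are left out. In 23 families at least 2 such members passed the floor, and the range of their log2 ratios had a median of 0.64. The range of miR-221-3p and miR-222-3p was 0.21, and 5 families had a smaller one. These were the pairs led by miR-16-5p, miR-378a-3p, miR-30a-3p, miR-3184-5p and miR-26a-5p. The partner of miR-3184-5p is miR-423-5p. Because miR-3184-5p had nearly the same values as miR-423-3p, from the same place, the range of this pair is close to an arm difference of miR-423. In the 16 families with just 2 such members the median range was 0.41. The widest were the families of miR-92a-3p, with a range of 4.08, and of miR-29a-3p, with 2.37.

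**Figure D5:**
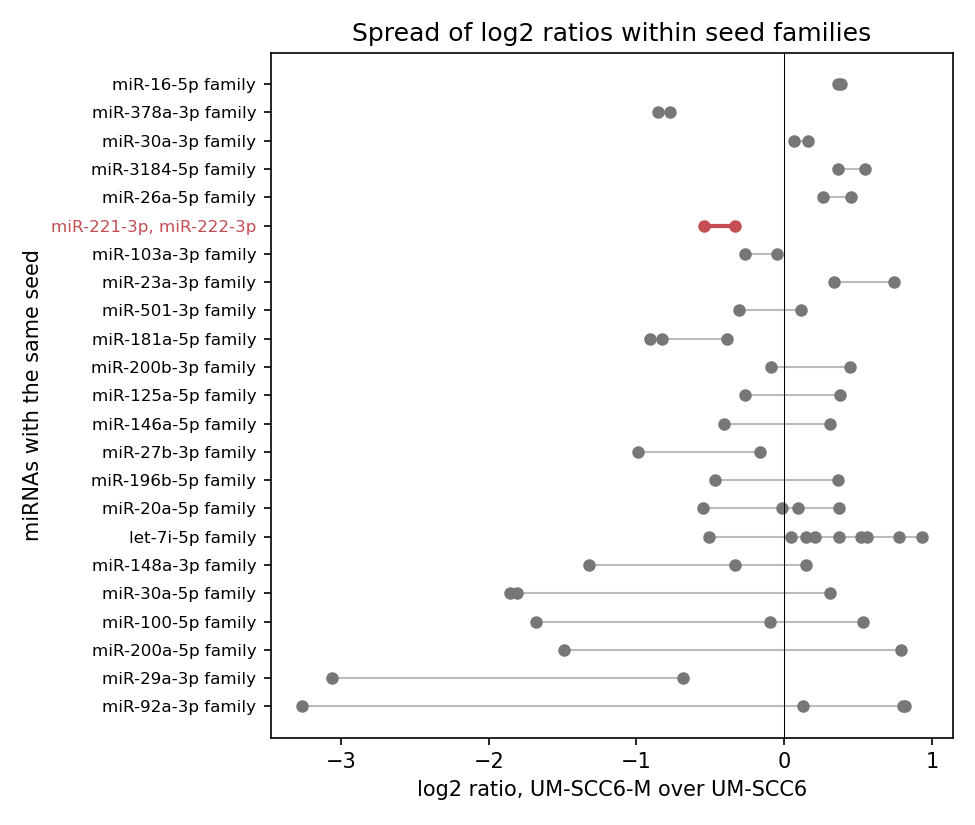
Log2 ratio of UM-SCC6-M over parental for the members of each of the 23 seed families with at least 2 members past the floor and in RefSeq, ordered by range (narrowest at the top), each named by its most abundant member. The guides of the cluster, in colour, are 0.21 apart and both lie below 0.

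Neighbours on the chromosome were compared as well, an addition made after the data were seen. Each hairpin that could be placed through RefSeq stood for the more abundant of its products past the floor. Only products that the RefSeq entries used here place at a single locus were taken, so a locus without such an entry would be missed. Over 35 pairs of hairpins on 1 strand within 10 kb of each other, the absolute difference in log2 ratio had a median of 0.30. The pair of miR-221-3p and miR-222-3p, at 0.21, had 10 pairs closer than itself, and within 1 kb it had 6 of 18. The pairs are not independent, because a cluster of several hairpins enters once for each combination. Most of the 10 closer pairs lie in the cluster of miR-424, miR-503, miR-542 and miR-450 or in that of miR-500a, miR-362, miR-660 and miR-502. The closest were miR-15b-5p with miR-16-2-3p at 0.013 and miR-450b-5p with miR-450a-5p at 0.022. The widest was miR-182-5p with miR-96-5p at 2.42.

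The miRNAs most like each member were named by the nearest log2 ratio among those past the floor, a likeness that rests on 2 libraries. For miR-221-3p these were miR-152-3p at -0.33, miR-455-3p at -0.32 and miR-185-5p at -0.35. For miR-222-3p they were miR-106b-5p at -0.55, let-7i-5p at -0.51 and miR-941 at -0.61. For miR-221-5p they were miR-128-3p, miR-103b and miR-125b-5p, at -0.29, -0.27 and -0.27. The neighbours in level were chosen by the level in 1 library, which is itself a part of the ratio. In parental cells miR-30c-5p stood next above miR-222-3p, with 8229 normalized reads in UM-SCC6-M and 6634 in parental cells, and miR-25-3p stood next below with 6138 and 5627. miR-27b-3p, next below miR-221-3p in parental cells, had 4579 and 5135. In UM-SCC6-M cells miR-26b-5p (4123 and 3021) was next above miR-221-3p and miR-148b-3p (3676 and 3324) next below it, while miR-27b-3p was next above miR-222-3p and miR-30a-3p (4173 and 3726) next below it. Around miR-221-5p stood miR-361-3p (1123 and 1252) and miR-101-3p (980.4 and 1352) in UM-SCC6-M cells, and miR-106b-3p (1425 and 1345) and miR-361-3p in parental cells. Of these neighbours, miR-30c-5p, miR-25-3p, miR-26b-5p, miR-148b-3p, miR-30a-3p and miR-106b-3p had higher values in UM-SCC6-M, opposite to the cluster. Over all 179 miRNAs past the floor, 92 had log2 ratios above 0, so few neighbours cannot be told from that share. Scaled to total reads, miR-27b-3p at 0.08 and miR-361-3p at 0.09 also lay above 0.

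Other miRNAs reported to repress the targets of the cluster were described as lists, beside the median of 0.04 over the 179 miRNAs past the floor. Of 5 other miRNAs reported to target CDKN1B, all past the floor, 4 had log2 ratios below 0, beside 87 of all 179, and the median was -0.71, or -0.47 scaled to total reads. miR-148a-3p had 5972 normalized reads in UM-SCC6-M cells and 14904 in parental cells and was the only one called, at 2.5-fold lower. A count of 1 in 5 is near the background of 20.1%. miR-24-3p had 1934 and 3164, miR-181a-5p 391.4 and 735.3, and miR-152-3p 519.7 and 653.5. miR-196a-5p went the other way, with 162.3 normalized reads in UM-SCC6-M cells and 126.4 in parental cells.

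Of the 3 miRNAs reported to target TIMP3 none was called, and so few cannot be told from the background of 20.1%. Their median was -0.17, the value of miR-21-5p, with miR-191-5p at 0.74 and miR-181b-5p at -0.39. For BBC3 only miR-483-3p had an entry, with 51.7 normalized reads in UM-SCC6-M cells and 1.86 in parental cells, on 433 and 14 reads. It was called, at 26.9-fold higher in UM-SCC6-M, and passed the floor only through that library. A single entry cannot be set against the background of 20.1%. The list of invasion-promoting miRNAs had a median of -0.06 over the 6 of 8 past the floor, and none was called, beside the same 20.1%. In it miR-21-5p stood at -0.17, miR-103a-3p at -0.27, miR-10b-5p at 0.22, miR-155-5p at 0.24 and miR-107 at -0.05. Scaled to total reads, the medians of these lists were 0.07 for TIMP3 and 0.18 for invasion, and miR-21-5p and miR-107 lay above 0. miR-222-3p lay below each of the 6 invasion-promoting miRNAs past the floor under the authors' scaling, as it does under any other constant per library, and miR-221-3p did as well.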

How the data were processed

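Small RNA libraries were made by adaptor ligation from 3 µg of total RNA, per the labels' protocols. Bowtie, a read aligner, is named in the submitters' processing notes. Counting, miRNA database release and genome build are not given in the sources used here. Signal columns, as deposited, hold 1 value per entry and library, scaled by the authors. In each library the values above 0 were whole multiples of a single step, within 7.2e-05 reads, and dividing by that step recovered the reads. Where 1 library was listed at 0, its reads came from the deposited log2 fold change, per the file headers UM-SCC6-M over parental. The deposited p-values and q-values are the authors' own and called nothing here.

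Log2 ratios had 0.5 reads added. Intervals of ratios and shares are exact (Clopper-Pearson, 95%), and those of balances rest on the Poisson error of log counts. With 1 library per state, a miRNA was called if its libraries differed 2-fold or more and the higher one had 50 normalized reads or more. The named miRNAs are the 4 members, the 3 nearest log2 ratios to each one past the floor, the neighbours in level, the first 5 of each list by level and any called list member. Single pairs, hairpins and families were named after their values were seen. Another list and a search result are not reported here. The members and lists were chosen with earlier results of these data known. Of the entries, 1037 matched a RefSeq mature name. Alternatives were 4 other scalings, 5 reads added, the deposited fold changes, other floors and thresholds. The script was tested on simulated data. Python 3.11.15, numpy 2.4.6, pandas 2.3.3, scipy 1.17.1 and matplotlib 3.10.9 were used.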

Additional observations from a re-analysis of the deposited data

How the results depend on the processing

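The log2 ratios of the 4 products and of their sum were below 0 under every alternative tried. Scaled to total reads they were -0.093 for miR-221-3p, -0.30 for miR-222-3p, -0.045 for miR-221-5p and -0.19 for the sum. Scaled to the median of ratios they were -0.29, -0.50, -0.24 and -0.39, in the same order. Scaled to total reads without the 10 most abundant miRNAs they were -0.27, -0.47, -0.22 and -0.36. With a trimmed mean of M-values only the sum moved beyond its counting interval, to -0.45. miR-222-5p stayed inside its wide interval throughout, between -0.86 and -0.60. Adding 5 reads left every ratio and balance inside its interval. The number of miRNAs called was 66 of 289 with a floor of 10 normalized reads, 21 of 123 with a floor of 200 and 169 of 555 with no floor. It was 78 of 179 at 1.5-fold and 7 of 179 at 4-fold, against 36 of 179 in the main setting. No member was called in any of these, and so few members cannot be told from these shares. Under the other settings the number called lay between 32 and 42. With a floor of 200, 0 of 13 hairpins had a smaller arm difference than miR-221. Depth limits miR-222-5p, with 42 and 68 reads, more than the other products. No paired analysis was possible because each state has 1 library.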
